A study of Homo sapiens with 6 samples.

Results

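Glycolysis genes and genes of the response to low oxygen were followed in 6 RNA libraries of LNCaP, an androgen-sensitive human prostate cancer cell line. ALDH high cells were the 10% of LNCaP cells with the strongest ALDEFLUOR signal, a fluorescent readout of aldehyde dehydrogenase activity, and ALDH low cells were the 10% with the weakest signal, with 3 samples each. Neither group was treated otherwise, and both were kept in RPMI-1640 supplemented with 10% FBS (serum). The oxygen level of the cultures, the time between sorting and RNA extraction, and whether the samples came from separate sorts are not given in the sources used here, so the p-values reflect only how far these samples spread, which may be technical. The gene set was a list of 35 names, matched to the gene names of the deposited table, of which 34 were found among its 16000 genes. They comprised all 17 listed glycolytic enzymes, 5 of 5 transporters and regulators of glycolysis, 5 of 5 genes of oxygen sensing and 7 of 8 further targets of the hypoxia response. CA9 was the name not found and was not analysed here. Unless stated otherwise, values are normalized reads (reads after scaling), meaning reads per gene divided by 1 size factor per library. The mean was 100 normalized reads or more in 33 of the 34 genes, all but ADM.

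Glycolysis splits glucose into pyruvate in the cytosol, and much of the flux is set by hexokinase, phosphofructokinase and glucose import. Hypoxia-inducible factors (HIFs) are pairs of an oxygen-labile alpha subunit and the stable subunit ARNT. Prolyl hydroxylases mark the alpha subunit for destruction while oxygen is present, and in low oxygen the pair binds DNA at the core letters ACGTG or GCGTG and raises transcription of most glycolytic enzymes, glucose and lactate transporters, VEGFA and others. RNA levels do not measure the HIF proteins themselves.

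The libraries did not separate by group. Recovered reads per library ran from 23817310 to 30617873. ALDH high 1, ALDH high 3 and ALDH low 2 lay close together over all genes, with Pearson correlations across genes of 0.990 to 0.991, while every other pair had 0.969 to 0.986. No pair agreed within sampling noise, since the mean chi-square per gene was at least 5.24. Transcripts of the mitochondrial genome took 4.90%, 2.89% and 4.90% of gene reads in ALDH high 1, 2 and 3, against 2.01%, 4.55% and 2.996% in ALDH low 1, 2 and 3. Luminal prostate markers KLK3, HOXB13, KRT8 and KRT18 had at least 9031 normalized reads in each library. Of 5 leukocyte, 4 endothelial and 5 fibroblast markers, 1 each was found (CD68, VWF and PDGFRB), at 16.4 to 32.0, 189 to 417 and 59.8 to 84.6 normalized reads. In such bulk samples, fewer cells of a type and less RNA per cell cannot be told apart.

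None of the 34 genes differed between ALDH high and ALDH low at an adjusted p of 0.05 in limma, where 0 of 16000 genes did (0%), and the smallest adjusted p of a member was 0.984. At an unadjusted limma p under 0.05 the count was 0 of 34, against 2.11% of all genes. At an adjusted p of 0.05, edgeR and DESeq2 on the recovered reads called 0 of 16000 genes as well. Leaving out 1 library moved the count at an unadjusted limma p under 0.05. Without ALDH high 2 it was 3 of 34 (PFKP, ENO2 and EGLN3), against 4.56% of all genes, and without ALDH low 2 it was 3 of 34 (EPAS1, BNIP3 and ANKRD37), against 10.6%. Without ALDH high 1, ALDH high 3, ALDH low 1 or ALDH low 3 it was 0 of 34, against 0.819%, 0.5%, 1.11% and 1.76% of all genes. The log2 difference, ALDH high minus ALDH low, was positive in 19 members and negative in 15. Its median was 0.04, beside 0.02 over all genes. Every 95% interval included 0. It stayed inside a 2-fold change in both directions for 32 of 34 members, all but ENO2 and ANKRD37, and within a 1.5-fold change in 20. Among all 11506 genes averaging 100 normalized reads or more, 6277 had an interval within a 1.5-fold change and 94.2% within a 2-fold change. The 3 libraries of each group therefore leave room for changes of up to about 2-fold, and larger ones lay outside the intervals of those 32 genes.

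**Figure D1:**
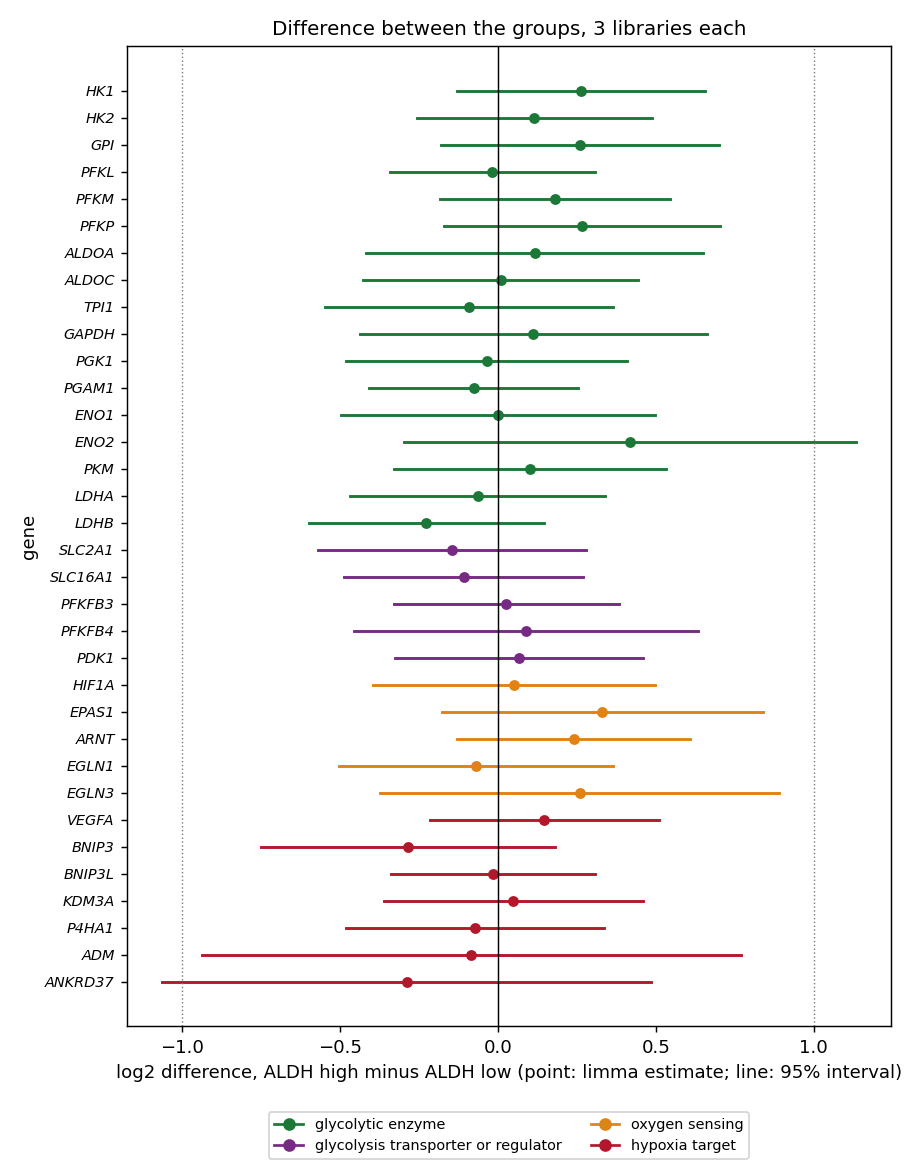
The log2 difference of each of the 34 genes, ALDH high minus ALDH low, on the horizontal axis (point: limma estimate from 3 libraries per group; line: 95% interval; dotted lines: a 2-fold change). Each line crosses 0, and those of ENO2 and ANKRD37 reach past a 2-fold change.

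Glucose enters the cell through the transporter GLUT1, encoded by SLC2A1, and is trapped by hexokinase. SLC2A1 (chromosome 1, 42925375 to 42959176; all coordinates GRCh38) had 1427, 1989 and 1647 reads after scaling in ALDH high samples 1 to 3, against 1982, 1458 and 2192 in ALDH low samples 1 to 3. Its lowest library was ALDH high 1 and its highest ALDH low 3, and the groups overlapped, with a log2 difference of −0.15 (95% interval −0.57 to 0.28). HK1, the hexokinase of most tissues (chromosome 10, 69269984 to 69401884), had 6066, 6051 and 6262 reads after scaling in ALDH high samples 1 to 3, against 3931, 6018 and 5630.0 in ALDH low samples 1 to 3. It was the 1 member of 34 whose groups did not overlap with ALDH high on top, beside 3.67% of all genes, and no member of 34 had ALDH high wholly below, beside 3.32% (6.99% of genes in either direction). The nearest values of HK1 were 6051 in ALDH high 2 and 6018 in ALDH low 2, so the groups barely parted. The log2 difference of HK1 was 0.26 (95% interval −0.13 to 0.65), and without ALDH low 1 it was 0.07. HK2, the inducible hexokinase that many tumours raise, had 1946, 2641 and 2136 reads after scaling in ALDH high samples 1 to 3, against 2373, 1993 and 1827 in ALDH low samples 1 to 3. Here ALDH high 2 and ALDH low 1 were highest, and the log2 difference was 0.12 (95% interval −0.26 to 0.49). Of the summed HK1 and HK2 level per kilobase of exon, HK1 made up 75.02%, 68.8% and 73.8% in ALDH high 1, 2 and 3, against 61.5%, 74.4% and 74.8% in ALDH low 1, 2 and 3. HK1 was thus the more abundant hexokinase RNA in all 6 libraries, and its share was lowest in ALDH low 1.

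Glucose-6-phosphate isomerase (GPI) and phosphofructokinase carry the sugar to fructose bisphosphate. GPI had 26232, 24727 and 29686 reads after scaling in ALDH high samples 1 to 3, against 17459.8, 23697 and 27130.3 in ALDH low samples 1 to 3. ALDH low 1 stood lowest and the log2 difference was 0.26 (95% interval −0.18 to 0.70). Of the phosphofructokinase genes, PFKP (platelet type, chromosome 10, 3066333 to 3137712) had 7513, 5489 and 8155 reads after scaling in ALDH high samples 1 to 3, against 5062, 7212 and 5297 in ALDH low samples 1 to 3. Its values were high in ALDH high 1, ALDH high 3 and ALDH low 2 and low in the other libraries, so that both groups held high and low libraries, and the log2 difference was 0.27 (95% interval −0.17 to 0.70). PFKM (muscle type) had 6681, 5851 and 6807 reads after scaling in ALDH high samples 1 to 3, against 4739, 6639.6 and 5813 in ALDH low samples 1 to 3, lowest in ALDH low 1. PFKL (liver type) had 8035, 8328 and 7849 reads after scaling in ALDH high samples 1 to 3, against 7854, 7529 and 9229 in ALDH low samples 1 to 3, a range of only 1.23-fold between the highest and the lowest library. The log2 differences were 0.18 (95% interval −0.18 to 0.54) for PFKM and −0.02 (95% interval −0.34 to 0.31) for PFKL. A smaller ratio was found in 8.61% of genes averaging 100 reads or more, so PFKL was among the steadier genes. Of the summed level of the 3 phosphofructokinase genes per kilobase of exon, PFKP took 46.1%, 39.6% and 48.2% in ALDH high 1, 2 and 3, against 40.7%, 46.0% and 37.5% in ALDH low 1, 2 and 3. PFKM kept a share between 25.2% and 28.0%, and PFKL filled the remainder, which was largest in ALDH high 2 and in samples 1 and 3 of ALDH low.

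PFKFB3 and PFKFB4 encode bifunctional enzymes that set fructose 2,6-bisphosphate, the activator of phosphofructokinase. PFKFB3 had 1168, 1010.0 and 1097 reads after scaling in ALDH high samples 1 to 3, against 1074, 1239 and 921 in ALDH low samples 1 to 3. PFKFB4, a strong hypoxia target, had 753, 1026 and 998 reads after scaling in ALDH high samples 1 to 3, against 987, 577 and 1125 in ALDH low samples 1 to 3. It was lowest in ALDH low 2 and highest in ALDH low 3, which belong to the same group. The log2 differences were 0.03 (95% interval −0.33 to 0.38) for PFKFB3 and 0.09 (95% interval −0.46 to 0.63) for PFKFB4.

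The lower part of the pathway, which starts with aldolase, ends in pyruvate. GAPDH, which makes the first NADH of the pathway (chromosome 12, 6533927 to 6538374), had 109728, 98449.8 and 127036 reads after scaling in ALDH high samples 1 to 3, against 78620.2, 106367 and 129929 in ALDH low samples 1 to 3. ALDOA, the main aldolase (chromosome 16, 30064164 to 30070457), had 59594, 51920.5 and 71036 reads after scaling in ALDH high samples 1 to 3, against 43544, 52976 and 74896 in ALDH low samples 1 to 3. ENO1, the ubiquitous enolase (chromosome 1, 8861000 to 8879250), had 68316, 69496 and 75448 reads after scaling in ALDH high samples 1 to 3, against 59568, 64415 and 93483 in ALDH low samples 1 to 3. In all 3 of these genes ALDH low 1 was the lowest and ALDH low 3 the highest library, so the ALDH low libraries spanned the ALDH high ones. GAPDH has 62 annotated pseudogenes in GENCODE release 29, and reads shared with them make its level uncertain. The log2 differences were 0.11 (95% interval −0.44 to 0.66) for GAPDH, 0.12 (95% interval −0.42 to 0.65) for ALDOA and −0.00067 (95% interval −0.50 to 0.50) for ENO1. The triose phosphate isomerase gene TPI1 averaged 28351 ± 2993 across ALDH high samples and 30676 ± 7518 across ALDH low samples (SD, n = 3 per group), and the phosphoglycerate kinase gene PGK1 26972 ± 3352 across ALDH high samples and 27934 ± 6004 across ALDH low samples (SD, n = 3 per group). PKM, the pyruvate kinase of most tissues and tumours, averaged 34181 ± 2974 across ALDH high samples and 32197 ± 6059 across ALDH low samples (SD, n = 3 per group). The phosphoglycerate mutase gene PGAM1 averaged 11356 ± 299 across ALDH high samples and 12019.9 ± 1228 across ALDH low samples (SD, n = 3 per group), with a ratio of 1.22 between its highest and lowest library. In these 4 genes ALDH low 3 was highest, and their log2 differences ran from −0.09 (TPI1) to 0.10 (PKM). ALDOC, the aldolase of brain that is also a hypoxia target, averaged 2554 ± 283 across ALDH high samples and 2589 ± 691 across ALDH low samples (SD, n = 3 per group), again highest in ALDH low 3, and supplied 4.72% to 7.07% of the summed ALDOA and ALDOC level per kilobase.

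ENO2, the enolase of neurons and neuroendocrine cells (chromosome 12, 6913745 to 6923698), had its high values in other libraries than ENO1. ENO2 had 2421, 1193 and 2849.6 reads after scaling in ALDH high samples 1 to 3, against 1111, 2172 and 1432 in ALDH low samples 1 to 3. The high libraries were again ALDH high 1, ALDH high 3 and ALDH low 2. The ratio of the highest to the lowest library was 2.56, and 96.3% of genes averaging 100 reads or more had a smaller one. The log2 difference of ENO2 was the largest positive one of the set, 0.42 (95% interval −0.30 to 1.13), with a limma adjusted p of 0.984. It ran from 0.17 without ALDH high 3 to 0.80 without ALDH high 2, and without ALDH low 1 it was 0.195, below the 0.29 of VEGFA. Per kilobase, ENO2 supplied 4.19%, 2.07% and 4.45% of the summed enolase level in ALDH high 1, 2 and 3, against 2.25%, 3.99% and 1.85% in ALDH low 1, 2 and 3. The 3 libraries with the larger share were also the 3 with the largest share of mitochondrial transcripts, whose part in the result was not tested.

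Lactate dehydrogenase turns pyruvate into lactate and back. LDHA, whose subunit favours lactate formation and which is a classic hypoxia target, had 23490.0, 22695 and 26298 reads after scaling in ALDH high samples 1 to 3, against 23435, 22232 and 30722 in ALDH low samples 1 to 3, highest in ALDH low 3, with a log2 difference of −0.06 (95% interval −0.47 to 0.34). LDHB, whose subunit favours the reverse reaction, had 23164, 18649.5 and 22338 reads after scaling in ALDH high samples 1 to 3, against 26625, 22854 and 25409 in ALDH low samples 1 to 3. ALDH high 2 was the lowest library of LDHB and ALDH low 1 the highest, and its log2 difference of −0.23 (95% interval −0.60 to 0.15) was the most negative among the enzymes. Of the summed LDHA and LDHB level per kilobase, LDHB supplied 67.2%, 63.1% and 63.9% in ALDH high 1, 2 and 3, against 70.3%, 68.2% and 63.3% in ALDH low 1, 2 and 3. Per kilobase, LDHB thus exceeded LDHA in all 6 libraries, but this order rests on exon lengths of 6210 bases for LDHA and 2983 for LDHB. By normalized reads, LDHB was above LDHA only for samples 1 and 2 of ALDH low. Which RNA was the more abundant is therefore not settled here. In GENCODE release 29, 33.4% of the exon bases of LDHB and 42.3% of those of ALDOA are shared with another gene on the same strand, and how reads there were assigned is not given. SLC16A1, encoding the lactate transporter MCT1, had 4057, 5051 and 4122 reads after scaling in ALDH high samples 1 to 3, against 5800.0, 4389 and 4161 in ALDH low samples 1 to 3, highest in ALDH low 1. PDK1, a mitochondrial kinase that inhibits pyruvate dehydrogenase, had 1039, 1015 and 1093 reads after scaling in ALDH high samples 1 to 3, against 1223, 1027 and 800.2 in ALDH low samples 1 to 3, with ALDH low 1 highest and ALDH low 3 lowest. Their log2 differences were −0.11 (95% interval −0.49 to 0.27) and 0.07 (95% interval −0.33 to 0.46).

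**Figure D2:**
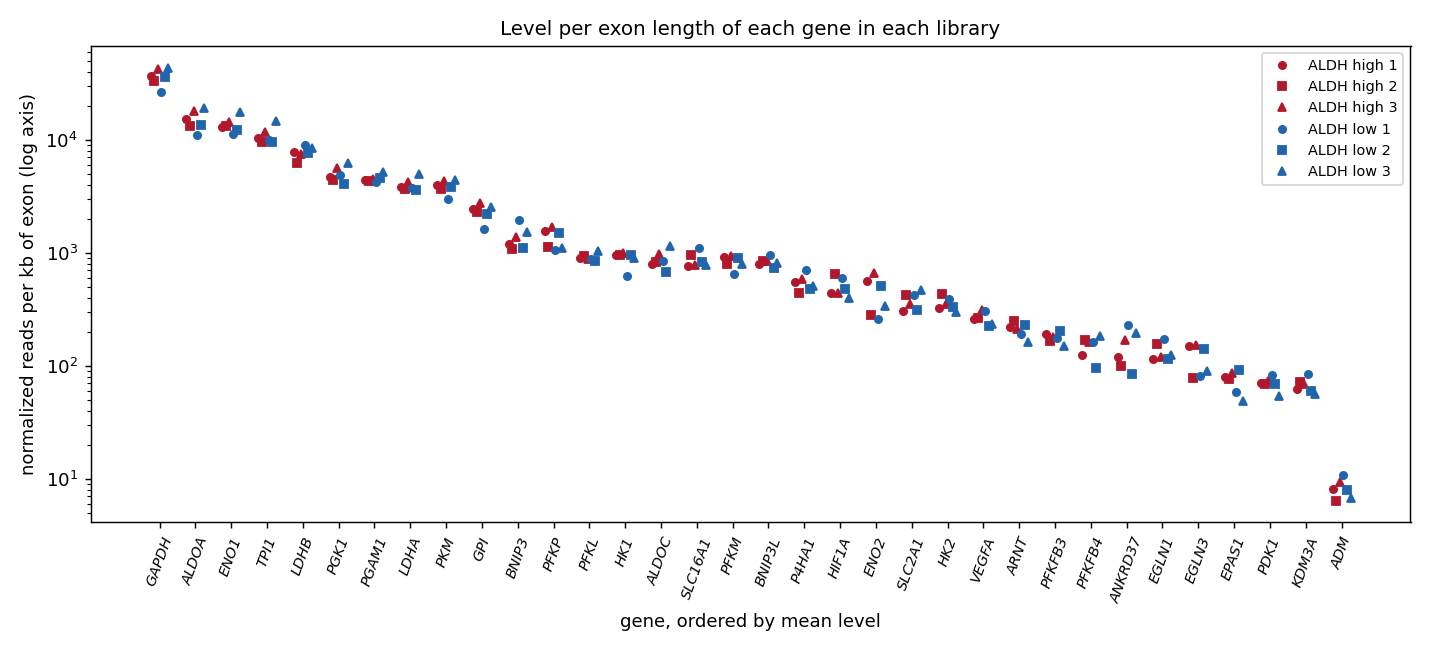
Normalized reads per kilobase of exon (log axis) of each gene in each of the 6 libraries, ordered by the mean. GAPDH is on top and ADM at the bottom, and for most neighbouring genes the ranges over the libraries overlap.

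Per kilobase of exon, the members' mean levels spanned from 36349 (GAPDH) to 8.19 (ADM) normalized reads. GAPDH stood above all other members in every library. ALDOA (mean 15065), ENO1 (13606) and TPI1 (10931) followed, and the ranges of neighbours in this order overlapped. LDHB (7768) lay below them without overlap with TPI1, and was followed by PGK1, PGAM1, LDHA and PKM, between 4981 and 3872, whose neighbouring ranges overlapped. BNIP3, at 1375, was the most abundant hypoxia target, and HIF1A, at 497, the most abundant gene of oxygen sensing. The lengths are those of all annotated exons of a gene, which understates the level of genes with long rarely used exons.

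Among the genes of oxygen sensing, HIF1A encodes the ubiquitous alpha subunit, EPAS1 the alpha subunit HIF-2alpha, and EGLN1 and EGLN3 are prolyl hydroxylases, of which EGLN3 is itself a hypoxia target. HIF1A (chromosome 14, 61695513 to 61748259) had 2273, 3305 and 2252 reads after scaling in ALDH high samples 1 to 3, against 3069, 2439 and 2036 in ALDH low samples 1 to 3. The highest values stood in ALDH high 2 and ALDH low 1, and the log2 difference was 0.05 (95% interval −0.40 to 0.50). EPAS1 (chromosome 2, 46293667 to 46386703) had 574, 557 and 634 reads after scaling in ALDH high samples 1 to 3, against 423, 673 and 358 in ALDH low samples 1 to 3. The ALDH high libraries lay close together while the ALDH low libraries spread to both sides of them, and the log2 difference was 0.33 (95% interval −0.18 to 0.84). ARNT had 1442, 1624 and 1373 reads after scaling in ALDH high samples 1 to 3, against 1248, 1485 and 1052 in ALDH low samples 1 to 3, lowest in ALDH low 3, with a log2 difference of 0.24 (95% interval −0.13 to 0.61). EGLN1 had 831, 1119 and 864 reads after scaling in ALDH high samples 1 to 3, against 1242, 829.7 and 899.8 in ALDH low samples 1 to 3, and EGLN3 (chromosome 14, 33924231 to 34462774) had 1103, 575 and 1117 reads after scaling in ALDH high samples 1 to 3, against 598, 1039.6 and 664 in ALDH low samples 1 to 3. The 2 hydroxylase genes were arranged in opposite ways, EGLN1 being highest in ALDH low 1 and ALDH high 2, where EGLN3 was near its lowest. Of their summed level per kilobase, EGLN3 supplied 56.7%, 33.6% and 56.1% in ALDH high 1, 2 and 3, against 32.2%, 55.3% and 42.2% in ALDH low 1, 2 and 3. The log2 differences were −0.07 (95% interval −0.50 to 0.36) for EGLN1 and 0.26 (95% interval −0.37 to 0.89) for EGLN3, and the groups overlapped in all 5 genes. When 1 library was left out, the difference of EGLN3 ran from 0.0967 (ALDH high 3 left out) to 0.575 (ALDH high 2 left out), and that of EPAS1 from 0.14 (ALDH low 3 left out) to 0.59 (ALDH low 2 left out).

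The further hypoxia targets in the table numbered 7. BNIP3, a mitophagy receptor (chromosome 10, 131966455 to 131982013), had 6420.0, 5752 and 7400.2 reads after scaling in ALDH high samples 1 to 3, against 10358, 5837 and 8179 in ALDH low samples 1 to 3. ANKRD37, a small ankyrin repeat protein (chromosome 4, 185396021 to 185400628), had 309, 257 and 436 reads after scaling in ALDH high samples 1 to 3, against 586, 216 and 500.2 in ALDH low samples 1 to 3. In both genes ALDH low 1 and ALDH low 3 were the highest libraries, while ALDH low 2 lay near ALDH high 2 at the bottom. The log2 differences were −0.29 (95% interval −0.75 to 0.18) for BNIP3 and −0.29 (95% interval −1.06 to 0.48) for ANKRD37, the most negative of the set with all libraries. Without ALDH low 1 they were −0.0905 and −0.0117, less negative than the −0.18 of LDHB, and without ALDH low 2 they were −0.50 and −0.73. The ratio of the highest to the lowest library was 2.72 in ANKRD37, the widest of the 34 genes, and 1.80 in BNIP3. BNIP3 has 39 annotated pseudogenes, so its level is likewise uncertain. Of the ANKRD37 exon bases, 35.2% overlap UFSP2 on the opposite strand, and without stated strand the reads of the pair cannot be told apart. BNIP3L, a paralogous mitophagy receptor, had 3397, 3619 and 3615 reads after scaling in ALDH high samples 1 to 3, against 4085, 3187 and 3525 in ALDH low samples 1 to 3, a narrower range than BNIP3, with a log2 difference of −0.02 (95% interval −0.34 to 0.31). VEGFA, the main angiogenic growth factor, had 3752, 3840.1 and 4458 reads after scaling in ALDH high samples 1 to 3, against 4399, 3211 and 3348 in ALDH low samples 1 to 3, highest in ALDH high 3 and ALDH low 1, with a log2 difference of 0.15 (95% interval −0.22 to 0.51). P4HA1, a collagen prolyl hydroxylase subunit, had 1709, 1374 and 1821 reads after scaling in ALDH high samples 1 to 3, against 2155, 1478 and 1564 in ALDH low samples 1 to 3. KDM3A, a histone demethylase, had 837, 964 and 932 reads after scaling in ALDH high samples 1 to 3, against 1132, 803 and 747 in ALDH low samples 1 to 3. Both were highest in ALDH low 1, and their log2 differences were −0.07 (95% interval −0.48 to 0.34) and 0.05 (95% interval −0.36 to 0.46). ADM, the precursor of the vasodilator adrenomedullin, was near the lower limit of the table at 21.5 ± 3.93 across ALDH high samples and 23.0 ± 5.78 across ALDH low samples (SD, n = 3 per group), with as few as 17 reads in a library, so its interval of −0.94 to 0.77 is wide.

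**Figure D3:**
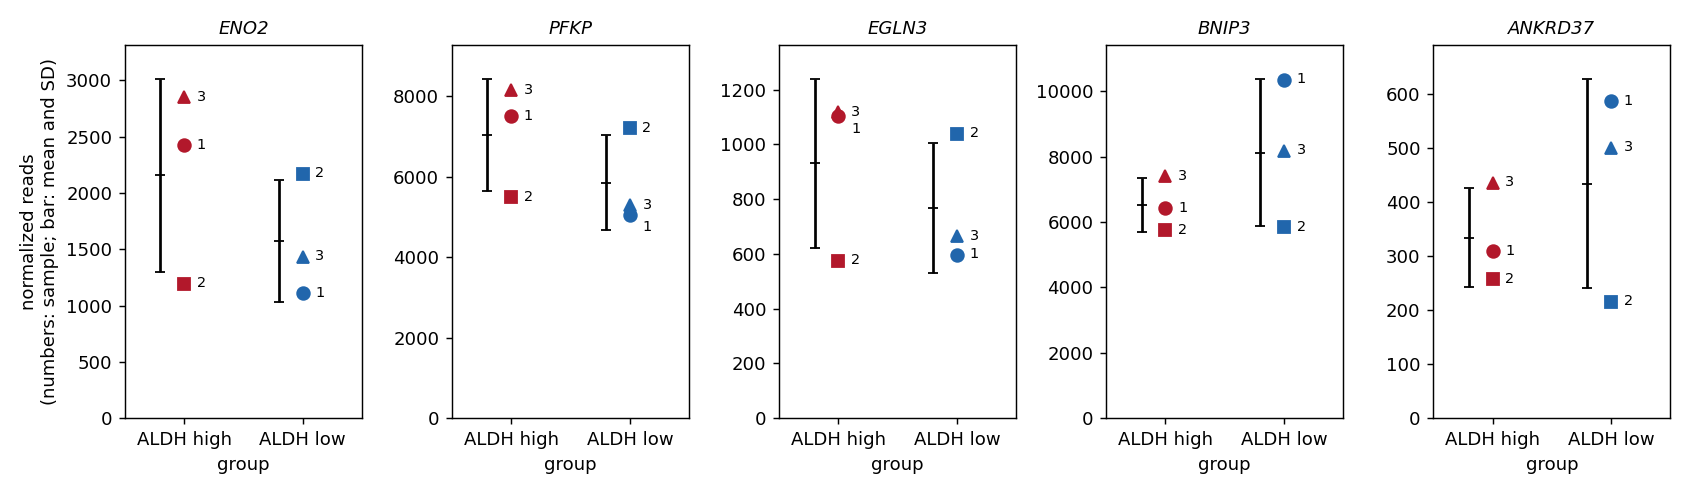
Normalized reads of ENO2, PFKP, EGLN3, BNIP3 and ANKRD37 by group (numbers: sample; bar: mean and SD of 3 samples), each axis starting at 0. Sample 2 of ALDH high lies with samples 1 and 3 of ALDH low in ENO2, PFKP and EGLN3, and the groups overlap in all 5 genes.

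The promoters of BNIP3, ANKRD37, ENO2 and EGLN3 are printed as examples, picked by their values. These 4 hypoxia-responsive genes had wide ranges with opposite arrangements over the libraries. They are not the 4 widest. PFKFB4 and EPAS1 had ratios of highest to lowest library of 1.95 and 1.88, against 1.94 in EGLN3 and 1.80 in BNIP3. The PFKFB4 and EPAS1 windows, not printed, each held 1 match to the HIF core letters. Windows reach from 250 bases before to 50 after the transcription start, taken from RefSeq (GRCh38.p14), written 5′ to 3′ on the gene's strand, with every match to the HIF core ACGTG or GCGTG on either strand in capitals. The windows are chr10:131981874-131982173 (minus strand), chr4:185396591-185396890 (plus strand), chr12:6914330-6914629 (plus strand) and chr14:33951025-33951324 (minus strand).
BNIP3: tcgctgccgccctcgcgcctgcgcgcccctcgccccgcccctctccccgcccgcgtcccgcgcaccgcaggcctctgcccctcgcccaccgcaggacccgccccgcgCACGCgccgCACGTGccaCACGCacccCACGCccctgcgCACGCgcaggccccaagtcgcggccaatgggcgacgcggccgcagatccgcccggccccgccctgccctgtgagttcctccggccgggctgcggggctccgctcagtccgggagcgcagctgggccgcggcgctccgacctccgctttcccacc
ANKRD37: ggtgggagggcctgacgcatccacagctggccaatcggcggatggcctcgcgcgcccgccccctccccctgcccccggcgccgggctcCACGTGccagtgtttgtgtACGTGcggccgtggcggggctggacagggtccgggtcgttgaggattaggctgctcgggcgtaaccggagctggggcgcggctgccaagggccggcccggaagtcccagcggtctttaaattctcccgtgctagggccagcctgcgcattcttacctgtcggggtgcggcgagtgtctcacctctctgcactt
ENO2: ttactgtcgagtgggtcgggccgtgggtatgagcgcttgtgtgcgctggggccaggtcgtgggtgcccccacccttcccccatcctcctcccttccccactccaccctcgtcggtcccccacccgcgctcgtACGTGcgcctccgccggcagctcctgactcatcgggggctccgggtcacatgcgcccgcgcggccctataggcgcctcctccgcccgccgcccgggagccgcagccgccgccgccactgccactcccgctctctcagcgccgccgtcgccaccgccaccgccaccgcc
EGLN3: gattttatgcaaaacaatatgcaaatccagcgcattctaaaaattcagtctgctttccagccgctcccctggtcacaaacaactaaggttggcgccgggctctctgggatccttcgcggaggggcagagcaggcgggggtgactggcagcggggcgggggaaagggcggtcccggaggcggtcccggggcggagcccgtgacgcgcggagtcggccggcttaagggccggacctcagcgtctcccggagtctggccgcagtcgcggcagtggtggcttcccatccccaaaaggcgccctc
The BNIP3 window held 6 matches, counting both strands, so that a palindrome CACGTG counts as 2. The ANKRD37 window held 3, the ENO2 window 1 and the EGLN3 window 0. A window was found for 31 of the 34 genes, several of which have more than 1, and 28 of the 31 held a match in at least 1 window. By window, 6 of 6 for the hypoxia targets and 23 of 37 (62.2%) for the glycolytic enzymes held a match, beside 60.5% of the 15264 windows of genes in the table and 48.4% of all 35116 windows. For ACGTG alone the share was 40.5% of the enzyme windows, beside 25.4% of the windows of genes in the table. The enzymes' share of windows with either match was thus near that of genes in the table. By gene, 16 of 17 enzymes held a match of either kind, and 5 of 7 HK1 windows and 5 of 7 PFKM windows held none. The share by gene was not counted over all genes, so the counts by gene have no background here. A gene with several windows also has more chances to hold a match. Windows of a gene can overlap, as those of KDM3A do, so counts of windows are not counts of separate sequences. HK2 and LDHA each had a window with 6 matches. A match describes letters only and does not show binding.

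Read by library, ALDH low 1 and ALDH low 3 were the highest in 10 and 12 of the 34 genes, and ALDH high 1 in none. ALDH low 1 was the highest library in 6 of 7 hypoxia targets, where it was highest in 20.9% of genes averaging 100 reads or more. The 30 further hypoxia targets described below did not share this as a set. Among them, ALDH low 1 was highest in ERO1A, INSIG2, TFRC, GBE1, RIOK3, TMEM45A and FUT11. It was lowest in ANGPTL4, STC2, GYS1, JMJD6 and ZNF395, and neither in the others. The count therefore describes the 7 listed targets and not hypoxia targets in general. The same library was the lowest in 10 of 17 glycolytic enzymes, where it was lowest in 23.4% of such genes. ALDH low 3 was the highest library in 10 of 17 enzymes, against 30.9% of such genes. Scaling to total counts gave 7 of 7 for ALDH low 1 in the targets and 9 of 17 as the lowest in the enzymes, but 5 of 17 for ALDH low 3 as the highest, beside 6 of 17 for ALDH high 3. The order among the highest libraries of the enzymes therefore depended on the scaling. Of the 355 genes averaging 10000 normalized reads or more, ALDH low 3 was highest in 64.2% and ALDH low 1 lowest in 36.6%, and of the 10 enzymes at that level in 8 and 6. With total-count scaling these were 43.7% and 33.2% of the 355 genes, and 4 and 6 of the 10 enzymes, with ALDH high 3 highest in another 4.

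Summed over the 17 enzymes, glycolytic transcripts took 1.67%, 1.57% and 1.84% of gene reads in ALDH high 1, 2 and 3, against 1.39%, 1.596% and 1.81% in ALDH low 1, 2 and 3. The 7 hypoxia targets took 0.0619%, 0.0605% and 0.0689% in ALDH high 1, 2 and 3, against 0.0862%, 0.0562% and 0.0599% in ALDH low 1, 2 and 3. The largest share of the targets and the smallest of the enzymes thus stood in the same library, ALDH low 1. That library also had the smallest share of mitochondrial transcripts, 2.01%, whose part in the result was not tested.

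**Figure D4:**
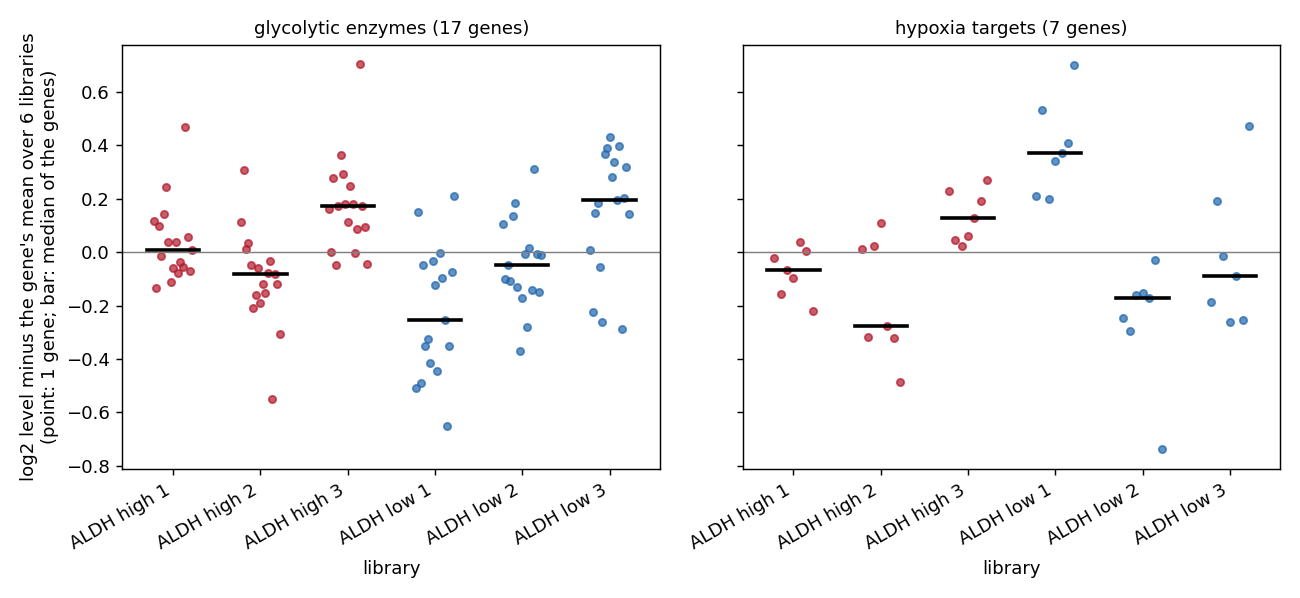
Deviation of each gene from its own mean over the 6 libraries, on the log2 scale, for the 17 glycolytic enzymes (left) and the 7 hypoxia targets (right), with the median as a bar. In ALDH low 1 the median is −0.25 for the enzymes and 0.37 for the targets.

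**Figure D5:**
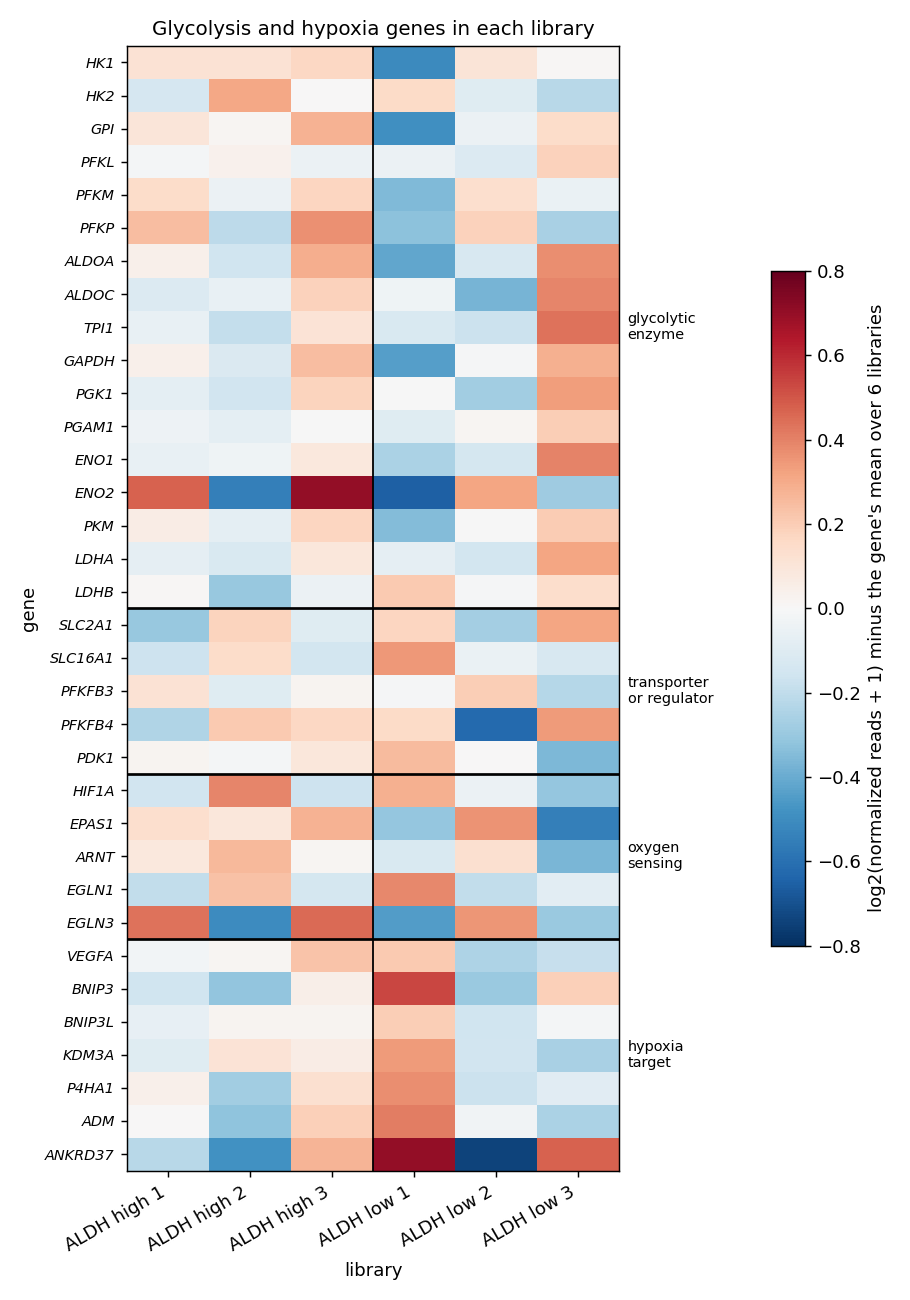
Deviation of each of the 34 genes (rows, by class) from its mean over the 6 libraries (columns), on the log2 scale in colour. ENO2, PFKP and EGLN3 are above their means in ALDH high 1, ALDH high 3 and ALDH low 2, and the 7 listed hypoxia targets are all above their means in ALDH low 1.

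As classes, the 17 enzymes had a median log2 difference of 0.10, with 10 values above 0 and 7 below. The median was 0.03 for the 5 transporters and regulators, of which 3 lay above 0 and 2 below. The 5 genes of oxygen sensing had a median of 0.24, 4 being above 0 and 1 below. The 7 hypoxia targets had a median of −0.07, 2 being above 0 and 5 below. The median of the enzymes was −0.05 without ALDH low 1 and 0.20 without ALDH low 3, and that of the targets 0.09 without ALDH low 1. The median of the targets was 0.0064 without ALDH high 2. The signs of these 2 medians thus changed when 1 library was left out. So did the sign of the median of the transporters and regulators, which ran from −0.16 to 0.04 over the 6 fits that each left out 1 library. The median of the oxygen-sensing genes stayed above 0 in these 6 fits, from 0.12 to 0.36.

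Leaving out both samples numbered 2, a choice made with these data known, set ALDH high 1 and 3 against ALDH low 1 and 3. Limma then called 107 of 16000 genes (0.669%), and 0 of the 34 members. At an unadjusted p under 0.05 limma counted 6 of 34 (ENO2, EGLN3, EPAS1, PFKP, ANKRD37 and SLC2A1), where 15.3% of all genes passed, so the members' share was near that of all genes. The 2 libraries left out are those that crossed the groups in ENO2, PFKP and EGLN3, so these counts are a description of the 4 libraries kept and no support for a difference between the groups. In this comparison both ALDH high libraries had a larger mitochondrial share (4.90% each) than both ALDH low libraries (2.01% and 2.996%), whose part in the result was not tested.

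Other genes of the same pathways were also examined. Of 14 further glycolysis genes in the table, of 24 listed, 7 had a positive and 7 a negative log2 difference (median −0.06). Of 12 genes of pyruvate entry into mitochondria (13 listed) the difference was positive in 4 and negative in 8 (median −0.05), and of the 7 pentose phosphate genes in 3 and 4 (median −0.06). Of 9 further oxygen-sensing genes (11 listed) it was positive in 3 and negative in 6 (median −0.05), and of 30 further hypoxia targets (32 listed) in 18 and 12 (median 0.04). Limma called 0 genes in each of these lists. Over all these lists together, 1 gene, MPC2, had an unadjusted limma p under 0.05, where 2.11% of all genes did. MPC2, a subunit of the mitochondrial pyruvate carrier, had 7389, 7180.3 and 7006 reads after scaling in ALDH high samples 1 to 3, against 14170.4, 7194 and 11674 in ALDH low samples 1 to 3. The ALDH high libraries and ALDH low 2 were nearly equal, and ALDH low 1 and ALDH low 3 stood above them, with a log2 difference of −0.56 (95% interval −1.06 to −0.06) and a limma adjusted p of 0.984. ANGPTL4, a secreted lipase inhibitor, averaged 26.1 ± 2.09 across ALDH high samples and 13.8 ± 8.69 across ALDH low samples (SD, n = 3 per group), without overlap between the groups, as in 3.67% of all genes. The further hypoxia targets with no overlap and ALDH high on top were 3 of 30 (ANGPTL4, LOXL2 and KDM4C). With ALDH high wholly below, as in 3.32% of all genes, were 3 of 12 genes of pyruvate entry (MPC1, DLD and PDK3) and 1 of 14 further glycolysis genes (TIGAR), named here after their values were seen. SLC2A3, the glucose transporter GLUT3, averaged 5.55 ± 1.18 across ALDH high samples and 15.4 ± 9.22 across ALDH low samples (SD, n = 3 per group). Both are near the lower limit of the table, and their log2 differences of 1.11 (95% interval −0.10 to 2.32) and −1.15 (95% interval −2.45 to 0.16) had intervals that included 0.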

How the data were processed

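Poly(A) RNA of 3 ALDH high and 3 ALDH low LNCaP samples was sequenced. The build was GRCh38, and DESeq2, Subread 1.5.2 (featureCounts), STAR 2.5.2b and Trimmomatic 0.36 were used, per the submitters' processing notes. Per the labels' protocols, reads in exons that mapped uniquely were counted for each gene. Neither the annotation release nor the strandedness is given in the sources used here. In the table, the authors deposited a normalized signal, the read count divided by 1 size factor per library, with their log2 fold change and p-value, which were not used. The table held 16000 genes and 46 spike-in sequences, with a lowest row mean of 9.65.

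Differences were tested with limma 3.58.1 (R 4.3.3) and its mean-dependent variance prior (trend) on log2(normalized reads + 1), over all 16000 genes without a further filter, with Benjamini-Hochberg adjustment and 0.05 as the threshold. Each difference is ALDH high minus ALDH low. The log2(value + 1) scale understates the change of low genes. At least 99.98% of each library's values were whole multiples of 1 step within 0.02 of a read, so whole reads were recovered for edgeR 4.0.16 and DESeq2 1.42.0, which called 0 genes each. Exon lengths and coordinates come from GENCODE release 29, which matched 15939 genes. The genes and lists were chosen with earlier results of these data known. Every member found could be named. Of the other lists, the 3 genes with the smallest unadjusted limma p (MPC2, ANGPTL4 and SLC2A3) were named. Any further gene of those lists was named after its values were seen.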

Additional observations from a re-analysis of the deposited data

Results flagged for a closer look

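ERCC spike-ins are artificial RNAs added as controls, and no comparison above uses them. They received 0.487% of reads when the libraries were pooled. Per library the ERCC share came to 0.630%, 0.399% and 0.403% for ALDH high samples 1 to 3, against 0.491%, 0.556% and 0.448% for ALDH low samples 1 to 3. With 3 samples per group, single outlying values were not searched for.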

How the results depend on the processing

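The count of genes called by limma (0 of 16000) and of members called (0 of 34) was also 0 with a pseudocount of 0.5, with genes of a mean of at least 100 only, with edgeR, with DESeq2, with total-count scaling, with the replicate number as a block and without each sample in turn, while 107 genes and 0 members were called without both samples numbered 2. At an unadjusted p under 0.05, edgeR counted 357 genes and DESeq2 355. Samples with the same number did not deviate together (correlations of deviations from the group means −0.35, −0.51 and −0.04 for numbers 1, 2 and 3), and no sample correlated best with its own number; with the replicate block limma called 0 genes and 226 had an unadjusted p under 0.05. Total-count scaling moved the median difference of all genes by 0.04. Without each sample in turn, the median difference of the enzymes ran from −0.05 to 0.20 and that of the hypoxia targets from −0.16 to 0.09. The sign of the log2 difference held without each sample in turn in 13 of 34 genes. Ranges of the 13 were −0.73 to −0.0117 for ANKRD37, 0.12 to 0.36 for ARNT, −0.50 to −0.0905 for BNIP3, 0.0967 to 0.575 for EGLN3, 0.17 to 0.80 for ENO2, 0.14 to 0.59 for EPAS1, 0.0801 to 0.40 for GPI, 0.0736 to 0.38 for HK1, −0.29 to −0.13 for LDHB, 0.05 to 0.29 for PFKM, 0.15 to 0.44 for PFKP, −0.32 to −0.0239 for SLC2A1, 0.0614 to 0.29 for VEGFA. In the other 21 it turned, with ranges of −0.23 to 0.0991 for ADM, −0.0618 to 0.33 for ALDOA, −0.17 to 0.21 for ALDOC, −0.0991 to 0.0798 for BNIP3L, −0.20 to 0.10 for EGLN1, −0.13 to 0.20 for ENO1, −0.0812 to 0.28 for GAPDH, −0.13 to 0.20 for HIF1A, −0.00938 to 0.22 for HK2, −0.0688 to 0.23 for KDM3A, −0.15 to 0.0791 for LDHA, −0.18 to 0.0944 for P4HA1, −0.096 to 0.21 for PDK1, −0.082 to 0.13 for PFKFB3, −0.20 to 0.28 for PFKFB4, −0.0775 to 0.0693 for PFKL, −0.14 to 0.000403 for PGAM1, −0.18 to 0.12 for PGK1, −0.0493 to 0.23 for PKM, −0.21 to 0.038 for SLC16A1, −0.20 to 0.10 for TPI1. The sign also turned with edgeR (−0.0214 for ALDOC), with DESeq2 (−0.0201 for ALDOC), with total-count scaling (0.0263 for PFKL, 0.00894 for PGK1, 0.044 for ENO1, 0.0294 for BNIP3L) and without both samples numbered 2 (−0.0304 for HK2, −0.14 for ALDOC, −0.28 for PFKFB4, −0.14 for HIF1A, −0.0584 for KDM3A, 0.0197 for ADM). None of these values was called, and the cause was not tested. Counting depth limits ADM most.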

Other observations

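Further hypoxia genes were looked at after their values were seen. HILPDA, a lipid droplet protein induced by HIF, had 1009.6, 1179 and 1201 reads after scaling in ALDH high samples 1 to 3, against 1665, 980.0 and 1961 in ALDH low samples 1 to 3. As in BNIP3, ANKRD37 and MPC2, its highest libraries were ALDH low 1 and ALDH low 3, and its log2 difference was −0.39 (95% interval −0.91 to 0.13). The 30 further hypoxia targets, of which HILPDA is a member, did not share this arrangement as a set. Their log2 difference was positive in 18 and negative in 12. EP300, a coactivator that HIF recruits, had 2053, 3722 and 2139 reads after scaling in ALDH high samples 1 to 3, against 2350.3, 2083 and 1286 in ALDH low samples 1 to 3, a range in which ALDH high 2 was highest and ALDH low 3 lowest, as for ARNT and HIF1A.

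Some of the genes have annotated pseudogenes. GENCODE release 29 names 62 of GAPDH, 13 of PGAM1 and 39 of BNIP3, of which 2, 0 and 1 were among the rows of the table, with 0.0600% and 0.264% of the normalized reads of GAPDH and BNIP3. Reads that match both a parent gene and a pseudogene were not measured.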
